A study of Homo sapiens with 32 samples.

Results

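The genes that encode collagen chains were followed here through the response of MCF10A cells to the cytokine TGFβ1, with and without an intact JUNB gene. A row of the count table was taken as a member when its Ensembl identifier belonged to a protein-coding gene whose symbol has the form COL, number, A, number. This gave 38 of the 17788 genes of the table. A further 6 genes of that form (COL6A5, COL9A1, COL19A1, COL20A1, COL22A1 and COL26A1) were not analysed here. This rule for members uses no measured value.

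MCF10A is an immortalised, non-tumorigenic human mammary epithelial cell line, and JUNB belongs to the JUN family, whose members form the dimeric factor AP-1. RNA-seq was performed on 32 libraries in 8 groups of 4. The WT groups held clones 27 and 2, and the mut groups held clones 1 and 65, in which parts of JUNB had been removed with CRISPR/Cas9. The labels call clones 1 and 65 knock-out, whereas the study describes a shortened JUNB polypeptide that remained at a low level. Cells of each genotype received 5 ng/ml recombinant human TGFβ1 for 6, 24 or 72 h, or solvent (0.1% BSA in PBS), in the same growth medium with horse serum, EGF, hydrocortisone, cholera toxin and insulin. The solvent libraries are labelled as time point 0, and the study describes 72 h of solvent for them. Each clone arose from a single cell and was taken through the series of treatments in 2 replications, so a genotype rests on 2 clones, and clone differences and genotype cannot be told apart beyond these 2 clones each. Values of 4 libraries are given in the order 27-1, 2-1, 27-2, 2-2 for WT and 1-1, 65-1, 1-2, 65-2 for mut, where 27-1 stands for clone 27, replication 1.

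Library totals ran from 39702412 to 54651906 counts, and 3 counts, taken as the floor, correspond to 0.0549 to 0.0756 CPM (counts scaled to the library total). JUNB itself was counted at 89.7 to 117 CPM in WT solvent and 69.2 to 172 CPM in mut solvent, and at 163 to 175 CPM and 122 to 359 CPM after 72 h of TGFβ1. Counts over the whole gene do not show which part was removed, so they do not check the genotype. All 10 mammary epithelial markers examined reached 1 CPM in every group, among them KRT5 at 3262 to 8158 CPM. Of 10 fibroblast markers, LUM had no row, THY1 stayed at or below 0.0932 CPM and TCF21 at or below 0.0474 CPM, while FBLN1 reached 347 to 931 CPM. Of 6 immune markers, PTPRC stayed at or below 0.0498 CPM, while CD14 (2.29 to 28.1 CPM) and CD68 (5.64 to 24.4 CPM) reached 1 CPM. Of 6 endothelial markers, PECAM1 and CDH5 had no row, while KDR (2.81 to 27.0 CPM) and TEK (0.521 to 4.85 CPM) reached 1 CPM. The summed epithelial markers lay at 13265 to 15753 CPM in WT solvent and 18101 to 23555 CPM at 72 h, and at 16451 to 18512 and 18688 to 22530.3 CPM in mut cells. Single markers went both ways. At 72 h 5 of the 10 were called higher and 3 lower in WT cells, beside 13.9% and 38.4% of all tested genes. In mut cells 4 were called higher and 4 lower, beside 7.81% and 16.3%. The part of these marker changes in the collagen changes was not tested.

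Collagens are extracellular proteins built of 3 chains wound into a triple helix. Fibrillar collagens form the cable-like fibrils of connective tissue. In epithelia, type IV collagen builds the network of the basement membrane, type VII collagen forms the anchoring fibrils that fasten the basement membrane to the stroma, and type XVII collagen spans the plasma membrane in hemidesmosomes, which tie basal keratins to the basement membrane. TGFβ is known as an inducer of matrix genes in many cell types.

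A set of 6 members lie in head-to-head pairs, in which 2 type IV genes start close together and run in opposite directions. The RefSeq starts of COL4A1 (minus strand) and COL4A2 (plus strand) lie 127 bases apart on chromosome 13. Those of COL4A6 and COL4A5 lie 380 bases apart on chromosome X, and those of COL4A4 and COL4A3 419 bases apart on chromosome 2. Whole-gene limits in GENCODE 44 differ from these starts, with COL4A2 (from 110305812) reaching into COL4A1 (to 110307157). The stretches between the starts are printed for the pair called higher at each time of TGFβ1 treatment and for its X-linked counterpart, followed by the 250 bases upstream of COL17A1 and COL7A1, members with contrasting responses in mut cells. They come from RefSeq (GRCh38.p14), with the COL4A stretches on the plus strand and COL17A1 and COL7A1 on the minus strand, each 5′ to 3′. Capitals mark the GC box letters GGGCGG in COL4A1-COL4A2, the TATA letters TATAAA in COL17A1 and TGTCTG, the reverse complement of the SMAD repeat CAGACA, in COL7A1.
COL4A1-COL4A2, chr13:110307158-110307283: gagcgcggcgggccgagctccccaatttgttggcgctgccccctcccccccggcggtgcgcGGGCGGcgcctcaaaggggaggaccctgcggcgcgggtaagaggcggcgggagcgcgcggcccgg
COL4A6-COL4A5 (the 250 bases next to COL4A5), chrX:108439588-108439837: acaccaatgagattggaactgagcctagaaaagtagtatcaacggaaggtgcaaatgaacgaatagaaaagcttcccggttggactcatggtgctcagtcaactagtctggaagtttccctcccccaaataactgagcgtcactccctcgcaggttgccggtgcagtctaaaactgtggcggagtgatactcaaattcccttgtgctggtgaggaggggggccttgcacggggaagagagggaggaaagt
COL17A1, chr10:104085881-104086130: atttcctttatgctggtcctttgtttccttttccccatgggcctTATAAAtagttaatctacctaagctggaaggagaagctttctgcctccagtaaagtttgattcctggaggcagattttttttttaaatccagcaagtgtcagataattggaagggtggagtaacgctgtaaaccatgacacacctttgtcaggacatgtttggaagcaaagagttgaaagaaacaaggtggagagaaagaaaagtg
COL7A1, chr3:48595330-48595579: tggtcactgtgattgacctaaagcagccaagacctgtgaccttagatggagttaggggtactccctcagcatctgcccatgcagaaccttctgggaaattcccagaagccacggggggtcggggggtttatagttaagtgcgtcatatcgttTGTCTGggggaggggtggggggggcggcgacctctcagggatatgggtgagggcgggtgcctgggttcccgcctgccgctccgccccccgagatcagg

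A RefSeq promoter window (250 bases before to 50 after a start) was matched for 29 of the 38 members. The AP-1 motif TGANTCA was found on either strand in 1 of these 29 members (3.45%, COL10A1) and in 9.37% of all 27305 genes with a window. CAGACA, the SMAD repeat, occurred in 4 members (13.8%: COL10A1, COL16A1, COL4A6 and COL7A1) and in 19.9% of all genes, and the SMAD palindrome GTCTAGAC in 0 members and 0.256% of all genes. GGGCGG occurred in 21 members (72.4%) and 48.3% of all genes, and TATAAA in 7 members (24.1%) and 14.0% of all genes. The median GC content was 64.8% over the member windows and 58.7% over all windows. These are matches of letters in short windows, and none of them was tested for binding.

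Of the 38 members, 27 passed the filter on low counts and were tested. The 11 that did not pass were COL1A2, COL3A1, COL6A6, COL10A1, COL11A1, COL14A1, COL15A1, COL21A1, COL23A1, COL24A1 and COL25A1, and none of them exceeded 18 counts or 0.364 CPM in any library. COL1A2 and COL3A1, the partner chain of COL1A1 in type I collagen and the chain of type III collagen, reached at most 0.364 and 0.0804 CPM. On the TPM scale (which also divides by the joined length of all exons of a gene), COL17A1 ranked first among the members in each of the 8 groups. This ranking depends on those lengths, which understate genes with long rare isoforms. By CPM, COL17A1 was not first in mut cells at 72 h, with means of 459 in clone 1 and 511 in clone 65. COL7A1 had 627 and 716 CPM there, and COL4A2 788 and 589 CPM. In WT solvent it held 52.4% of the summed member TPM (522 ± 52.6 TPM, SD, n = 4), followed by COL4A6 with 109 ± 11.2, COL7A1 with 75.8 ± 13.9, COL4A5 with 71.5 ± 4.23 and COL4A2 with 55.3 ± 14.9 TPM. COL7A1 and COL4A5 differed by less than the SD of COL7A1. In mut solvent the share of COL17A1 was 38.0% (288 ± 32.4 TPM), followed by COL7A1 with 86.4 ± 9.92, COL8A1 with 85.2 ± 5.97 and COL4A6 with 82.5 ± 4.97 TPM, which lay within their SDs of each other.

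The summed level of the members was 904 to 1136 TPM in WT solvent and 1670 to 2041 TPM after 72 h of TGFβ1. In mut cells it was 700.3 to 817 TPM in solvent and 1249 to 1480 TPM after 72 h. Solvent and 72 h libraries did not overlap in either genotype. At 72 h COL17A1 still held 44.6% of the member TPM in WT cells, while its share in mut cells was 21.5%, beside 18.7% for COL7A1 and 14.6% for COL8A1.

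**Figure D1:**
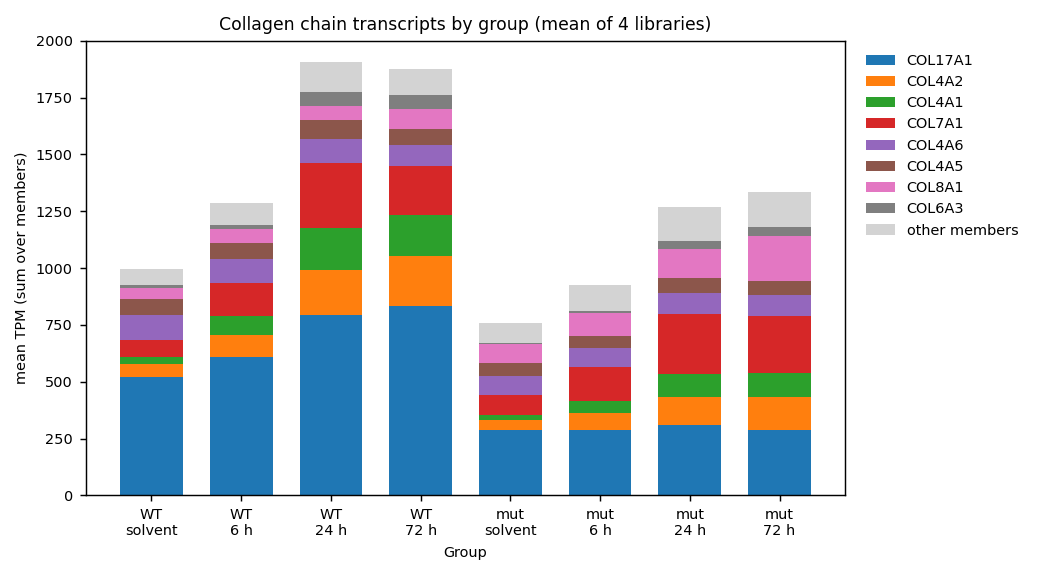
Stacked bars give the mean TPM of the collagen chain genes in the 8 groups (4 libraries each), starting at 0. In colour are COL17A1, COL4A2, COL4A1, COL7A1, COL4A6, COL4A5, COL8A1 and COL6A3. The other members, COL6A1 among them, are in grey. The COL17A1 segment is the largest in every group and grows from 522 to 835 TPM in WT cells, against 288 and 287 TPM in mut solvent and mut 72 h.

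Which members responded to TGFβ1, and when, was asked by comparing treated and solvent libraries within each genotype (limma-voom fitted over 14865 genes, Benjamini-Hochberg adjusted p under 0.05). In WT cells 4 of the 27 tested members rose at 6 h (14.8%) and 0 fell, beside 5.13% of all tested genes higher and 11.9% lower. At 24 h 10 rose (37.0%) and 0 fell (all genes 14.1% higher, 38% lower), and at 72 h 13 rose (48.1%) and 2 fell (13.9% higher, 38.4% lower). In mut cells 5 members, or 18.5%, rose at 6 h (all genes 2.06% higher, 4.94% lower), 9, or 33.3%, at 24 h (6.75% higher, 17.1% lower) and 11, or 40.7%, at 72 h (7.81% higher, 16.3% lower), with 0 falling at each time. COL1A1, COL4A1, COL4A2 and COL7A1 rose at 6 h in both genotypes, and COL6A1, COL6A2, COL6A3 and COL12A1 joined them at 24 h in both. COL17A1 and COL27A1 were called in WT cells from 24 h, COL4A3 and COL4A4 in WT cells at 72 h, COL16A1 in mut cells at each time and COL13A1 in mut cells at 72 h. COL8A1 was called in both at 72 h. Treated groups share their solvent libraries across times, so the calls at 6, 24 and 72 h are not independent of each other.

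The median log2 change of the tested members at 72 h was 0.80 in WT cells against -0.19 over all tested genes, and 0.37 in mut cells against -0.09. Values are relative to the library total. With TMM factors, which centre most genes by construction, the WT median of all genes at 72 h was -0.03, the member median became 0.96, and the split of the member calls changed from 13 higher and 2 lower to 15 higher and 0 lower. With the series (a clone and its replication) as a block, 8 instead of 4 members were called in WT cells at 6 h, COL16A1 (log2 change 0.41), COL17A1 (0.22) and COL6A3 (0.97) among them, and 15 instead of 9 in mut cells at 24 h, COL4A5 (0.26), COL4A6 (0.16), COL8A1 (0.55) and COL27A1 (0.51) among the higher ones and COL4A4 (-0.46) lower. The block also added COL4A4 (0.54), COL4A5 (0.21) and COL16A1 (0.35) in WT cells at 24 h and COL6A1 (0.31) and COL12A1 (0.41) in mut cells at 6 h.

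**Figure D2:**
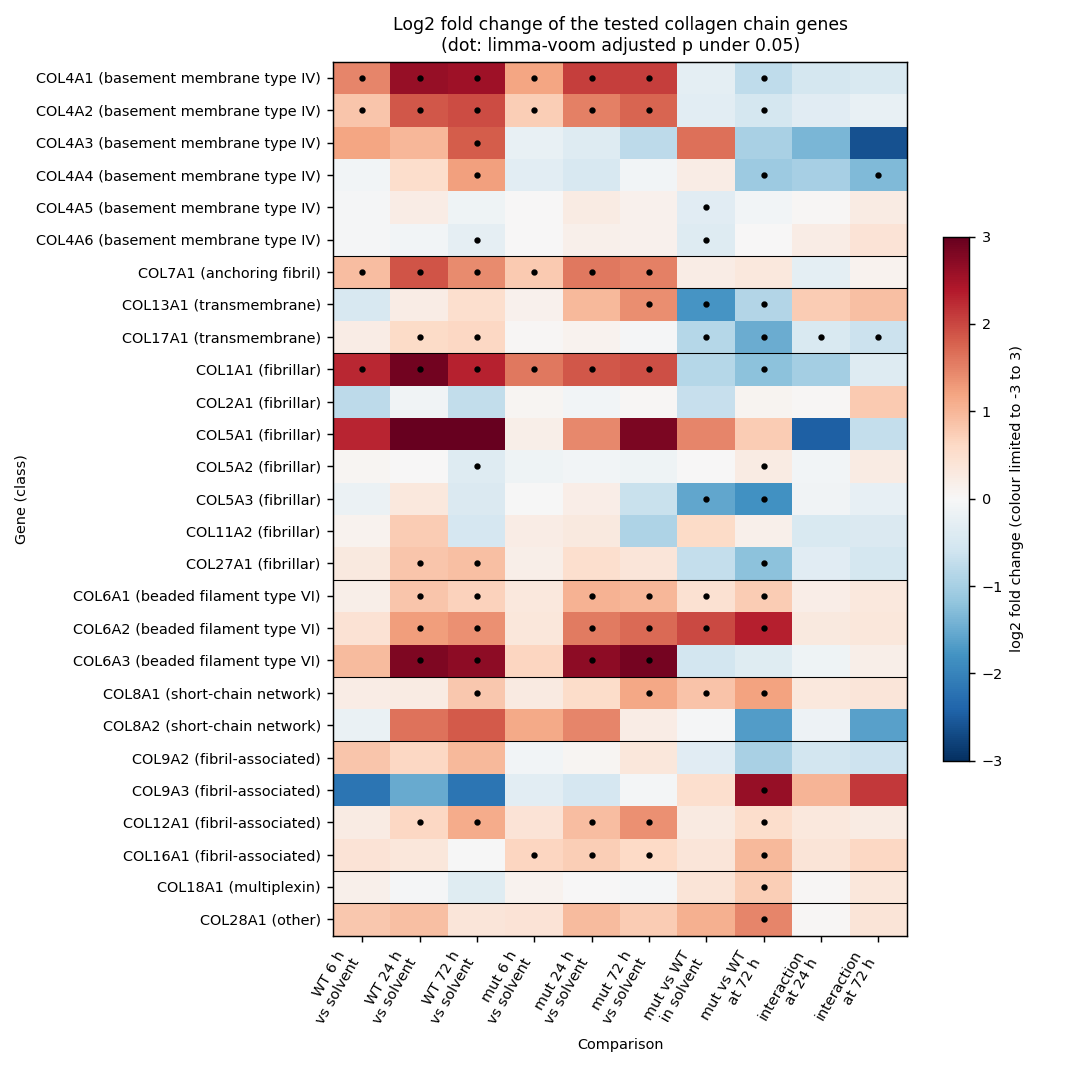
Each row is one of the 27 tested collagen chain genes, with its structural class, and each column 1 of the 10 comparisons. Colour gives the log2 fold change, limited to the range from -3 to 3, and a dot marks an adjusted p under 0.05 (limma-voom). Dots run across all 6 TGFβ1 columns for COL4A1, COL4A2, COL7A1 and COL1A1, and COL17A1 has dots in both genotype and both interaction columns.

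COL4A1 (ENSG00000187498, chr13:110148963-110307157, minus strand) and COL4A2 (chr13:110305812-110513209, plus strand) encode the chains of the common type IV network. Coordinates are those of the whole genes in GENCODE 44 on GRCh38. COL4A1 stood at 102, 94.2, 158 and 77.9 CPM in WT solvent, at 228, 293, 385 and 268 CPM at 6 h, and at 549, 560.4, 629 and 709 CPM at 72 h. Every treated WT library lay above every WT solvent library. The log2 changes were 1.47 ± 0.23 (SE; adjusted p = 5.29e-05) at 6 h, 2.61 ± 0.23 (5.03e-10) at 24 h and 2.55 ± 0.23 (9.00e-10) at 72 h. In mut cells COL4A1 stood at 69.9, 79.9, 131 and 71.9 CPM in solvent, at 219, 213, 124 and 237 CPM at 6 h, and at 396, 285, 514 and 293 CPM at 72 h. Library 1-2 was the highest of the mut solvent group and the lowest at 6 h, so that the mut ranges overlapped at 6 h but not at 24 or 72 h. The mut changes were 1.18 ± 0.23 (0.00286), 2.08 ± 0.23 (2.90e-07) and 2.09 ± 0.23 (1.73e-07).

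COL4A2 moved with it, from 262, 225, 354 and 194 CPM in WT solvent to 913, 932, 956 and 1125 CPM at 72 h, and from 189, 207, 245 and 177 CPM to 736, 562, 841 and 616 CPM in mut cells. Its log2 changes at 72 h were 1.96 ± 0.17 in WT (4.81e-10) and 1.74 ± 0.17 in mut (2.51e-08). The mut call at 6 h (0.73 ± 0.17, adjusted p = 0.0101) was lost without the 6 h library 65-1 (0.68) or 65-2 (0.67), and when the replications of a clone were summed. In series 1-2 COL4A2 did not rise at 6 h (log2 change -0.00190), and the mut groups at 6 h and in solvent overlapped. Exons of COL4A2 overlap those of the antisense gene COL4A2-AS1, and the library kit keeps no strand. The 2 chains did not rise by the same factor. The COL4A1/COL4A2 ratio of TPM was 0.544 ± 0.0338 in WT solvent and 0.913 ± 0.0517 at 24 h, and 0.557 ± 0.0979 and 0.814 ± 0.0320 in mut cells (SD, n = 4), with no overlap of the treated and solvent libraries at 24 h.

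COL4A5 and COL4A6, chains of a second, tissue-restricted type IV network, changed little beside COL4A1 and COL4A2. At 24 h COL4A5 lay at 211 to 278 CPM in WT and 176 to 216 CPM in mut cells, with log2 changes of 0.21 ± 0.10 (adjusted p = 0.0805) and 0.26 ± 0.10 (0.0665). All 4 series of each genotype were higher, the mut libraries did not overlap those in solvent, and COL4A5 was called there under 6 of 19 alternatives in WT and 7 of 19 in mut cells, among them TMM factors, edgeR, DESeq2 and the series block. COL4A5 lay at 186 to 216 CPM in WT solvent and 154 to 236 CPM at 72 h, and at 157 to 169 CPM and 158 to 200.2 CPM in mut cells. Its log2 change at 72 h was -0.12 ± 0.10 in WT (adjusted p = 0.319) and 0.13 ± 0.10 in mut (0.384). COL4A6 fell by 0.27 ± 0.11 on the log2 scale in WT at 72 h (adjusted p = 0.0390), from 218, 268, 230.4 and 273 CPM to 169, 215, 190.1 and 251 CPM. The groups overlapped, the call was lost under 11 of 19 alternatives, TMM factors among them, and without WT solvent 2-1 (-0.23) or 2-2 (-0.22) or WT 72 h 27-1 (-0.18) or 27-2 (-0.24). The COL4A6/COL4A5 ratio of TPM lay between 1.16 and 1.62 over the 32 libraries. In WT cells it was 1.42 to 1.62 in solvent, and lower without overlap at 24 h (1.16 to 1.31) and 72 h (1.36 to 1.40). In mut cells it was 1.35 to 1.57 in solvent, 1.29 to 1.47 at 24 h and 1.39 to 1.51 at 72 h, with overlap.

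**Figure D3:**
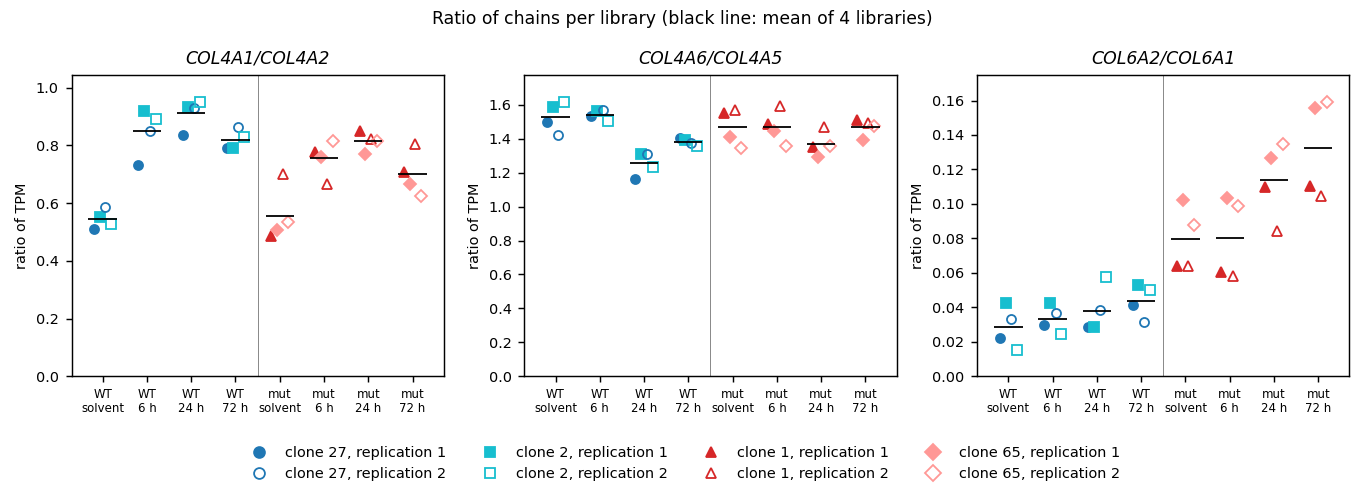
Ratios of TPM between chains are plotted per library for the 8 groups, with the mean of 4 libraries as a black line and axes that start at 0. The COL4A1/COL4A2 ratio is higher at 6, 24 and 72 h than in solvent in WT cells. The COL4A6/COL4A5 ratio lies between 1.16 and 1.62 and is lower at 24 and 72 h than in solvent in WT cells. For COL6A2/COL6A1 the mut libraries lie above the WT libraries.

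COL4A4, which with COL4A3 supplies chains to the type IV network of kidney and other specialised basement membranes, was present at a low level. In WT cells it stood at 2.20, 2.16, 3.09 and 1.91 CPM in solvent and at 4.57, 5.13, 7.69 and 4.52 CPM at 72 h. These groups did not overlap, and the log2 change was 1.23 ± 0.23 (adjusted p = 4.86e-05). In mut cells the values were 2.58, 2.53, 2.54 and 3.18 CPM in solvent and 2.08, 2.47, 2.68 and 3.04 CPM at 72 h, a log2 change of -0.09 ± 0.24 (0.818). COL4A3 did not exceed 0.809 CPM in any library. Its call at 72 h in WT cells (log2 change 1.83 ± 0.75, adjusted p = 0.0426) rested on 0 to 0.315 CPM in solvent against 0.229 to 0.809 CPM. Exons of COL4A3 overlap those of MFF-DT on the other strand, and the library kit keeps no strand.

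COL7A1 (ENSG00000114270, chr3:48564073-48595329, minus strand), the chain of the anchoring fibril, stood at 176, 242, 236 and 168 CPM in WT solvent and rose to 673, 768, 708 and 833 CPM at 24 h, with 430.0, 575, 518 and 658 CPM at 72 h. The log2 changes were 0.93 ± 0.16 (adjusted p = 0.000157), 1.88 ± 0.16 (2.94e-10) and 1.41 ± 0.16 (3.66e-08) at 6, 24 and 72 h. The 24 h values lay above every 72 h value. In mut cells it went from 237, 277, 215 and 216 CPM to 855, 791, 498 and 735 CPM at 24 h and 620.3, 676, 633 and 755 CPM at 72 h, with log2 changes of 0.79 ± 0.16 (0.00371), 1.59 ± 0.16 (6.79e-08) and 1.51 ± 0.16 (8.99e-08). All 4 series of each genotype were higher than their own solvent library at each time.

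COL1A1 (ENSG00000108821, chr17:50184101-50201632, minus strand), a chain of type I collagen, had the largest log2 change among the fibrillar chains given per library. In WT cells it stood at 10.3, 8.96, 5.59 and 8.41 CPM in solvent and reached 47.3, 47.2, 26.5 and 40.4 CPM at 6 h, 73.4, 65.9, 53.4 and 52.8 CPM at 24 h and 52.6, 46.3, 27.1 and 43.5 CPM at 72 h. Every treated WT library lay above every solvent library, with log2 changes of 2.25 ± 0.26 (adjusted p = 6.37e-07), 2.89 ± 0.25 (4.10e-10) and 2.32 ± 0.26 (2.65e-08). In mut cells the values were 5.27, 5.01, 5.30 and 3.16 CPM in solvent and 17.4, 16.7, 16.8 and 18.8 CPM at 72 h, again without overlap, and the change at 72 h was 1.93 ± 0.32 (4.10e-05). The absolute level was low beside the basement membrane chains, at 20.3 ± 5.21 TPM in WT and 8.0 ± 0.263 TPM in mut cells at 72 h.

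COL27A1, a fibrillar chain known from cartilage, rose in WT cells from 4.47, 3.31, 2.76 and 2.34 CPM to 9.01, 5.31, 5.46 and 4.71 CPM at 72 h (log2 change 0.90 ± 0.20, adjusted p = 0.000374). In mut cells it stood at 1.78, 2.32, 2.34 and 1.49 CPM in solvent and 2.78, 2.30, 2.26 and 2.75 CPM at 72 h (0.37 ± 0.25, 0.289). At 24 h the mut change was 0.49 (0.151), which was called with DESeq2 and with the series block. The difference between the WT and mut changes of COL27A1 was not called at 24 or 72 h. COL5A2, a chain of type V collagen, which copolymerises with type I fibrils, fell in WT cells from 9.94, 10.4, 9.46 and 10.6 CPM to 6.99, 8.65, 7.28 and 8.39 CPM at 72 h. Those groups did not overlap and the log2 change was -0.38 ± 0.10 (adjusted p = 0.00167), which with TMM factors, edgeR or DESeq2 no longer passed. COL5A2 in mut cells changed by -0.13 ± 0.09 (0.299). Of the other tested fibrillar chains, COL2A1 (0.879 to 3.02 CPM over the libraries), COL5A1 (0 to 1.37 CPM) and COL11A2 (0.151 to 1.30 CPM) were called in none of the 10 comparisons.

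The type VI chains, which assemble into beaded microfilaments close to cells, rose in both genotypes from 24 h. COL6A3 stood at 31.9, 38.8, 119.8 and 19.0 CPM in WT solvent and at 112, 246, 413 and 410.1 CPM at 72 h. In mut cells it stood at 24.2, 27.4, 56.1 and 16.5 CPM in solvent and at 212, 172, 258 and 176 CPM at 72 h. The solvent library 27-2 lay above the 72 h library 27-1, so the WT groups overlapped, while the mut groups did not. The log2 changes at 72 h were 2.68 ± 0.54 in WT (adjusted p = 0.000153) and 2.86 ± 0.57 in mut (0.000411). Within a series the WT increase ranged from 1.79 to 4.43 and the mut increase from 2.20 to 3.41.

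COL6A1 went from 29.5, 30.2, 31.3 and 27.2 CPM to 50.1, 38.0, 51.7 and 51.3 CPM in WT (log2 change 0.69 ± 0.15, adjusted p = 0.000282) and from 43.4, 46.4, 37.7 and 34.7 CPM to 89.4, 83.9, 82.7 and 66.3 CPM in mut (0.99 ± 0.13, 2.77e-06). Neither pair of groups overlapped. COL6A2 was far lower, at 0.629, 1.24, 1.00 and 0.403 CPM in WT solvent and 2.00, 1.93, 1.58 and 2.47 CPM at 72 h, against 2.67, 4.57, 2.34 and 2.94 CPM and 9.53, 12.6, 8.36 and 10.2 CPM in mut cells. Its changes at 72 h were 1.36 ± 0.49 in WT (0.0203) and 1.71 ± 0.25 in mut (9.88e-06). The WT call was lost without WT solvent 27-1 (1.26) or 2-2 (1.09), and the WT call at 24 h (1.27 ± 0.49, 0.0313) was lost without WT solvent 27-1 (1.17) or 2-2 (1.00) or WT 24 h 27-2 (1.12) or 2-2 (1.08). COL6A6 did not pass the filter.

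**Figure D4:**
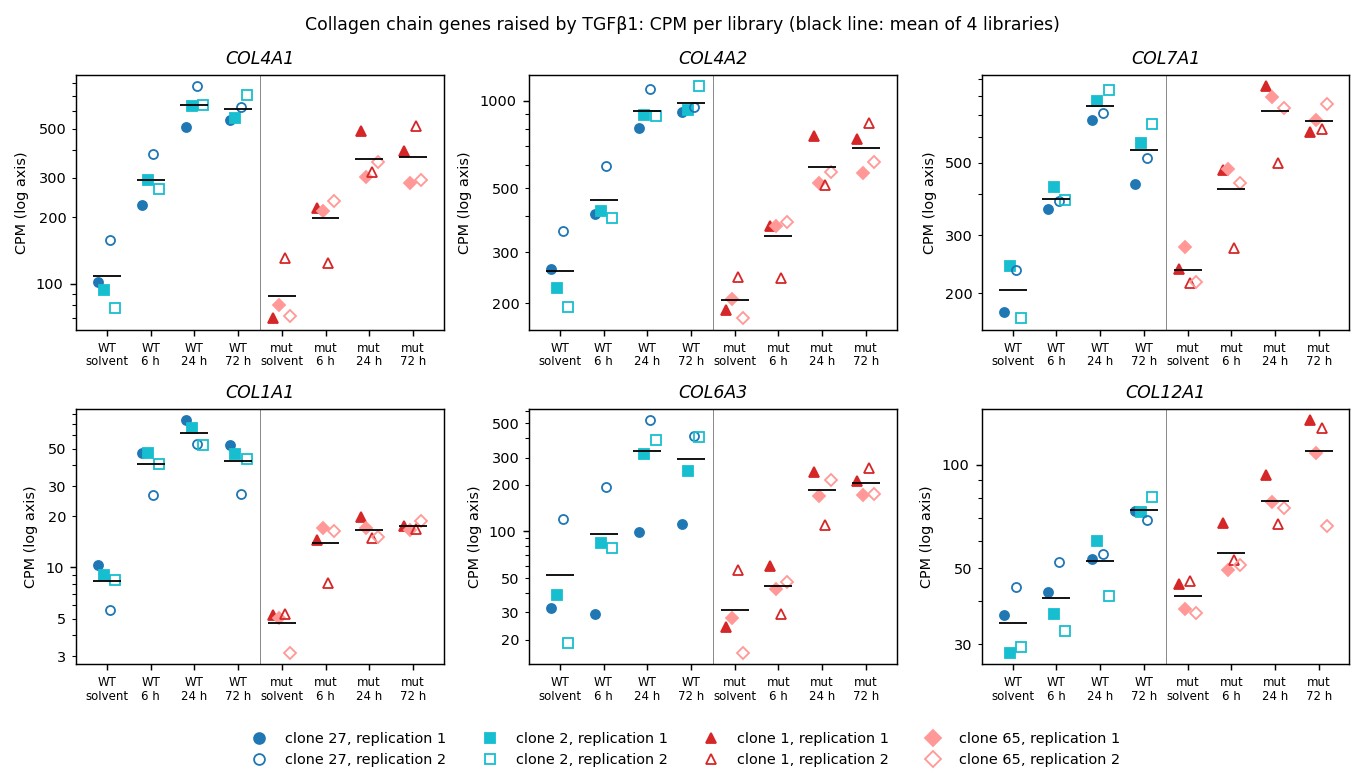
CPM per library on log axes for 6 collagen chain genes that rose with TGFβ1 in both genotypes, by group, with filled symbols for replication 1, open symbols for replication 2 and the mean of 4 libraries as a black line. COL4A1 rises from 77.9 to 158 CPM in WT solvent to 549 to 709 CPM at 72 h, and the open circle of series 27-2 stands highest among the WT libraries for COL6A3.

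COL12A1 and COL16A1 belong to the collagens that attach to fibril surfaces. COL12A1 rose in WT cells from 36.4, 28.4, 44.1 and 29.4 CPM to 73.1, 72.7, 69.0 and 80.4 CPM at 72 h (log2 change 1.12 ± 0.18, adjusted p = 9.49e-06) and in mut cells from 44.9, 38.1, 45.7 and 37.1 CPM to 135, 108, 128 and 66.4 CPM (1.36 ± 0.17, 1.22e-06). Neither pair of groups overlapped. COL16A1 in WT cells stood at 33.9, 46.2, 35.1 and 46.6 CPM in solvent and 34.1, 42.8, 34.7 and 48.8 CPM at 72 h (log2 change -0.02 ± 0.19, adjusted p = 0.957). At 6 h the WT libraries lay at 49.6 to 58.4 CPM, above every solvent library, and at 24 h at 41.4 to 62.3 CPM, with overlap. All 4 WT series were higher than their own solvent library at both times. These WT changes, 0.42 (0.135) and 0.34 (0.132), were not called, except under some alternatives, the series block among them. In mut cells COL16A1 stood at 48.1, 63.9, 38.9 and 56.2 CPM in solvent, with 75.3, 103, 56.3 and 89.1 CPM reached at 6 h and 63.4, 88.6, 66.3 and 96.0 CPM at 72 h. The mut changes were 0.64 ± 0.18 (0.0269) at 6 h, 0.73 ± 0.18 (0.00338) at 24 h and 0.59 ± 0.18 (0.0144) at 72 h. Clone 65 lay above clone 1 at the same replication number, and the mut groups at 6 and 72 h overlapped the solvent group. The call at 6 h was lost without mut solvent 1-1 (0.61) or 1-2 (0.51) or mut 6 h 65-1 (0.51) or 65-2 (0.58), and that at 72 h without mut solvent 1-2 (0.47) or mut 72 h 65-2 (0.49). All 3 mut calls of COL16A1 were lost when the replications of a clone were summed. COL9A2 and COL9A3, chains of type IX collagen of cartilage, did not exceed 46 and 26 counts in any library.

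COL8A1, a short network-forming chain known from vessel walls and cornea, stood at 113, 88.5, 169.6 and 81.5 CPM in WT solvent and 153, 167, 247 and 199 CPM at 72 h, and at 191, 183, 201 and 212 CPM and 470.4, 419, 515 and 360.3 CPM in mut cells. The WT solvent library 27-2 exceeded 2 of the 72 h libraries, whereas the mut groups did not overlap. The log2 changes were 0.80 ± 0.21 in WT (adjusted p = 0.00237) and 1.15 ± 0.21 in mut (0.000138). COL8A2 did not exceed 0.640 CPM and was not called.

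COL17A1 (ENSG00000065618, chr10:104031286-104085880, minus strand), the hemidesmosomal collagen, stood at 773, 897, 1003 and 878 CPM in WT solvent, at 1208, 1217, 1497 and 1336 CPM at 24 h and at 1286, 1296, 1481 and 1345 CPM at 72 h. The treated libraries at 24 and 72 h lay above every solvent library, and the log2 changes were 0.57 ± 0.10 (adjusted p = 2.28e-05) and 0.61 ± 0.10 (9.71e-06). In mut cells COL17A1 stood at 429, 483, 549 and 512 CPM in solvent and 439, 451, 479 and 570.3 CPM at 72 h, with changes of 0.11 ± 0.10 at 24 h (0.464) and -0.03 ± 0.10 at 72 h (0.879). All 4 WT series were higher than their own solvent library at 72 h, by 0.53 to 0.73, against 2 of 4 mut series, from -0.20 to 0.15. COL13A1, the other transmembrane collagen that was tested, is described as concentrated at cell adhesions. It rose in mut cells from 0.487 to 1.21 CPM in solvent to 2.02 to 2.66 CPM at 72 h (log2 change 1.40 ± 0.39, adjusted p = 0.00906), while WT cells had 1.81 to 3.94 and 3.54 to 5.50 CPM (0.50 ± 0.26, 0.114). COL18A1, whose chain carries the endostatin sequence at its end, stood at 14.2, 17.8, 8.81 and 17.8 CPM in WT solvent and 11.4, 11.4, 8.90 and 12.9 CPM at 72 h. It had a log2 change of -0.37 ± 0.20 in WT at 72 h (0.126) and was called as lower there with the series block (-0.38).

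Whether the mut clones differed from the WT clones in their collagen chains before and after TGFβ1 was asked by direct comparison. In solvent 3 members were higher in mut cells (11.1%) and 5 lower (18.5%), beside 6.38% and 6.32% of all tested genes, and at 72 h 9 were higher (33.3%) and 8 lower (29.6%), beside 26% and 13.2%. At 72 h the share of members higher in mut cells was thus close to that of all genes. The median log2 difference of the members was 0.01 in solvent and 0.01 at 72 h, against -0.01 and 0.10 over all tested genes. With TMM factors the medians at 72 h were -0.07 and 0.01. Summing the 2 replications of each clone left 5 members called in solvent and 15 at 72 h.

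COL17A1 was lower in mut cells in solvent by a log2 difference of -0.85 ± 0.10 (0.556-fold, adjusted p = 6.17e-07) and at 72 h by -1.48 ± 0.10 (0.357-fold, 4.11e-11). In both states the highest mut library lay below the lowest WT library. COL6A2 was higher, by 1.99 ± 0.46 (3.97-fold, 0.00402) in solvent and 2.34 ± 0.29 (5.05-fold, 4.52e-07) at 72 h. COL6A1 was higher by 0.45 ± 0.15 in solvent (0.0442) and 0.75 ± 0.13 at 72 h (4.49e-05), and the solvent call was lost with TMM factors, with no low-count filter and without any 1 of 7 of the 8 libraries, mut 65-2 being the exception (log2 differences of 0.38 to 0.48 in those 7 fits). Neither COL6A1 nor COL6A2 overlapped between genotypes in solvent or at 72 h. COL6A3, the third chain, had differences of -0.56 ± 0.61 (0.611) and -0.37 ± 0.49 (0.580). The COL6A2/COL6A1 ratio of TPM was 0.0283 ± 0.0120 in WT solvent and 0.0795 ± 0.0188 in mut solvent, and 0.0439 ± 0.00950 and 0.133 ± 0.0287 at 72 h.

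COL8A1 was higher in mut cells by 0.86 ± 0.21 in solvent (adjusted p = 0.00649) and 1.21 ± 0.21 at 72 h (3.61e-05), with no overlap in either state. The solvent call was lost when the replications of a clone were summed. The summed fibroblast markers also differed, at 362 to 454 CPM in WT solvent against 687 to 797 CPM in mut solvent, and at 398 to 413 against 775 to 970 CPM at 72 h. FBLN1 carried most of that sum, and 4 of 10 markers reached 1 CPM in any library (FBLN1, DCN, MFAP5 and PDGFRA). The summed endothelial markers, mostly KDR, lay at 6.77 to 17 CPM in WT and 23.2 to 28.6 CPM in mut solvent, and at 3.88 to 4.59 and 16.0 to 22.7 CPM at 72 h, without overlap. The part of these markers in the COL6A1, COL6A2 and COL8A1 differences was not tested. In bulk samples, more cells of a type and more RNA per cell cannot be told apart.

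In solvent COL4A5 stood at 186, 216, 207 and 216 CPM in WT and 157, 166, 164 and 169 CPM in mut cells, and COL4A6 in mut cells at 191, 182, 201 and 178 CPM. COL4A5 and COL4A6 were lower in mut solvent by -0.33 ± 0.10 (adjusted p = 0.0309) and -0.39 ± 0.11 (0.0162), with no overlap of the libraries, and at 72 h their differences were -0.08 ± 0.10 (0.588) and 0.01 ± 0.11 (0.943). The COL4A5 call was lost without any 1 of 6 of the 8 solvent libraries, WT 27-1 and mut 65-1 being the exceptions (log2 differences of -0.34 to -0.31 in those 6 fits), and the COL4A6 call without WT solvent 2-1 (-0.35) or 2-2 (-0.34) or mut solvent 65-2 (-0.36). Both calls were also lost when the replications of a clone were summed, and that of COL4A5 without the whole series 27-2 or 1-2 (-0.33 each). COL13A1 was lower in mut cells by -1.77 ± 0.38 in solvent (0.00211) and -0.87 ± 0.27 at 72 h (0.0114). COL5A3, a minor chain of type V collagen, was lower by -1.57 ± 0.41 (0.0104) and -1.81 ± 0.48 (0.00373), with means of 2.90 ± 1.18 and 0.938 ± 0.312 CPM in solvent.

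**Figure D5:**
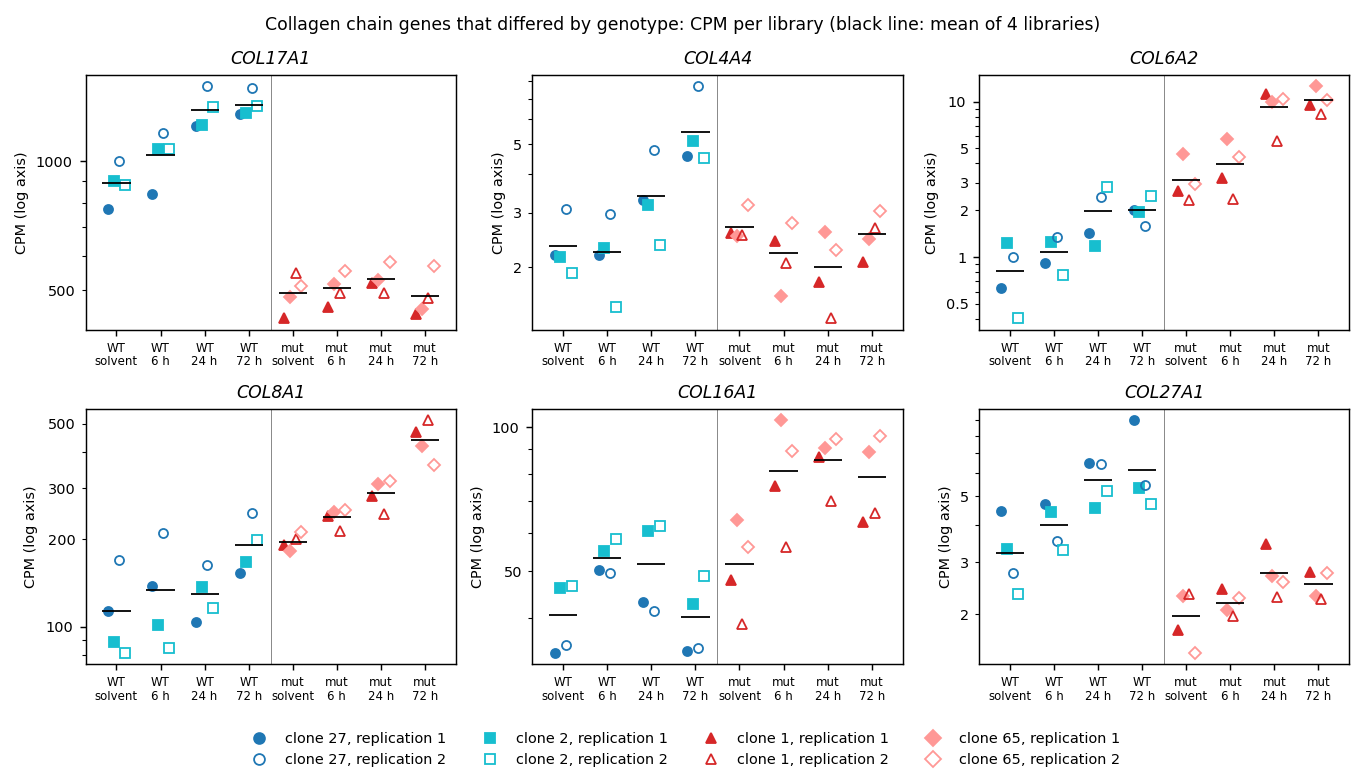
CPM per library on log axes for 6 collagen chain genes that differed between genotypes, by group, with filled symbols for replication 1, open symbols for replication 2 and the mean of 4 libraries as a black line. COL17A1 lies at 773 to 1497 CPM in the WT groups and 429 to 579.9 CPM in the mut groups, and COL4A4 separates from its solvent level at 72 h in WT cells.

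The remaining calls between genotypes were made at 72 h. COL1A1 was lower in mut cells by -1.24 ± 0.21 (adjusted p = 2.78e-05), COL27A1 by -1.24 ± 0.20 (2.03e-05), COL4A4 by -1.09 ± 0.21 (0.000180), COL4A1 by -0.75 ± 0.23 (0.00913) and COL4A2 by -0.53 ± 0.17 (0.0165), each with no overlap of the libraries. In solvent the same 5 genes had differences of -0.85 ± 0.35 (0.115) for COL1A1, -0.71 ± 0.24 (0.0513) for COL27A1, -0.29 ± 0.24 (0.463) for COL4A1, -0.31 ± 0.17 (0.242) for COL4A2 and 0.23 ± 0.25 (0.603) for COL4A4. COL1A1 and COL27A1 did not overlap between genotypes in solvent either. The COL4A2 call was lost without WT 72 h 2-2 (-0.46) or mut 72 h 65-1 (-0.43). In mut cells at 72 h COL18A1 stood at 18.6, 20.3, 15.1 and 19.9 CPM, above each WT library. COL16A1 (0.96 ± 0.18, 0.000124), COL18A1 (0.73 ± 0.19, 0.00289), COL12A1 (0.52 ± 0.16, 0.0123) and COL5A2 (0.26 ± 0.09, 0.0332) were higher in mut cells. COL12A1 lost its call without mut 72 h 1-1 (0.40) or 1-2 (0.43), and COL5A2 under 12 of 18 alternatives, TMM factors and the loss of WT 72 h 27-1 (0.20) or 27-2 (0.22) or of mut 72 h 65-1 (0.26), 1-2 (0.23) or 65-2 (0.24) among them. Exons of COL18A1 overlap those of SLC19A1, and its reads cannot be told apart from that gene's without strand. COL28A1 (1.47 ± 0.49, 0.0186) and COL9A3 (2.62 ± 0.96, 0.0301) were called at 0.162 to 1.02 CPM and 0 to 0.358 CPM over these 8 libraries, and exons of COL9A3 overlap those of TCFL5 without strand to separate them. COL7A1, with differences of 0.22 ± 0.16 (0.418) in solvent and 0.31 ± 0.16 (0.129) at 72 h, and COL6A3 were not called in either state.

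Whether the TGFβ1 change differed between genotypes was tested as an interaction, in which the WT change is subtracted from that of mut cells. At 24 h 0 members had a positive and 1 (3.70%) a negative interaction, beside 7.72% and 1.93% of all tested genes. At 72 h these were 0 and 2 (7.41%), beside 9.4% and 2.92%. A positive value can be a larger rise or a smaller fall in mut cells, and a negative value the reverse. COL17A1 was called at both times, with interactions of -0.46 ± 0.14 (adjusted p = 0.0346) at 24 h and -0.64 ± 0.14 (0.00312) at 72 h. The 24 h call was lost without any 1 of 9 libraries, namely WT solvent 27-1 or 2-2, WT 24 h 27-2 or 2-2, mut solvent 1-2 or 65-2 and mut 24 h 1-1, 65-1 or 1-2 (-0.46 to -0.40), and without the whole series 1-2 (-0.37). The 72 h call held under each of the alternatives run. COL4A4 was called at 72 h (-1.32 ± 0.33, 0.00852) and not at 24 h (-1.0 ± 0.36, 0.0708), and its 72 h call was lost when the replications of a clone were summed.

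For the members with the largest responses the interaction at 72 h was -0.46 ± 0.33 for COL4A1 (adjusted p = 0.393), -0.21 ± 0.24 for COL4A2 (0.628), 0.10 ± 0.23 for COL7A1 (0.835), -0.39 ± 0.41 for COL1A1 (0.590) and 0.18 ± 0.78 for COL6A3 (0.912). These intervals are wide, and a p above the threshold does not show that the changes were equal. With the series as a block, 5 members instead of 1 were called at 24 h, adding COL1A1 (-1.02), COL4A4 (-1.0), COL16A1 (0.38) and COL4A6 (0.23), and 6 instead of 2 at 72 h, COL16A1 (0.61) and COL4A6 (0.40) among the added ones.

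Genes of collagen biology outside the members were read from lists. The 3 genes named per list were picked for their WT change at 72 h, so a smaller change in mut cells is favoured by that choice, and no test of that difference is given for them. Of 39 tested genes for collagen assembly and secretion, 23 rose and 4 fell in WT cells at 72 h, beside 13.9% of all tested genes higher and 38.4% lower. In mut cells 14 rose and 3 fell, beside 7.81% and 16.3%. At 72 h 4 were higher and 15 lower in mut than in WT cells, beside 26% and 13.2%. LOX, a cross-linking lysyl oxidase, went from 9.94 ± 1.31 to 31.5 ± 8.40 CPM in WT (log2 change 1.64 ± 0.21, adjusted p = 3.39e-07) and from 24.0 ± 3.71 to 28.0 ± 3.47 CPM in mut cells (0.24 ± 0.17, 0.348). SEC24D, a coat protein of the vesicles that carry procollagen out of the endoplasmic reticulum, had changes of 1.23 ± 0.19 in WT (2.98e-06) and 0.37 ± 0.19 in mut (0.166). TLL1, a procollagen C-proteinase, rose by 1.85 ± 0.22 (8.25e-08) and 2.22 ± 0.39 (0.000110).

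Of 9 tested collagen receptors, 5 rose and 1 fell in WT cells at 72 h (all genes 13.9% higher, 38.4% lower), and 4 rose and 0 fell in mut cells (7.81% and 16.3%). ITGA2, the alpha subunit of a collagen-binding integrin, rose from 260.2 ± 18.9 to 589 ± 52.7 CPM in WT (1.18 ± 0.16, adjusted p = 4.98e-07) and from 223 ± 28.5 to 361 ± 78.0 CPM in mut (0.68 ± 0.16, 0.00183). MRC2, an endocytic collagen receptor, rose by 1.08 ± 0.18 (1.47e-05) and 0.80 ± 0.18 (0.00147). ADGRG1, an adhesion receptor that binds type III collagen, rose by 1.09 ± 0.22 (0.000143) and 1.03 ± 0.20 (0.000410).

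Of 10 tested collagen-cleaving proteases, 7 rose in WT cells at 72 h (all genes 13.9% higher) and 5 in mut cells (7.81%), with 0 falling in either (38.4% and 16.3%). At 72 h 0 were higher and 8 lower in mut than in WT cells (26% and 13.2%). MMP2, a type IV collagenase, went from 4.31 ± 2.26 to 58.2 ± 12.8 CPM in WT (3.87 ± 0.38, adjusted p = 2.95e-09) and from 9.92 ± 2.44 to 30.9 ± 2.98 CPM in mut cells (1.68 ± 0.28, 6.24e-05). MMP9, a second type IV collagenase, reached 35.4 ± 9.85 CPM in WT and 4.24 ± 2.13 CPM in mut cells at 72 h (difference -3.15 ± 0.36, 8.91e-08). FAP, a membrane protease, rose by 3.05 ± 0.21 (1.39e-11) and 2.17 ± 0.21 (1.45e-08).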

How the data were processed

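RNA-seq libraries of JUNB WT and mut MCF10A clones were analysed from the count table as deposited, which holds whole-number read counts per gene without normalization. The authors trimmed reads with Trimmomatic and used STAR both for mapping to GRCh38 (Ensembl) and for counting, with versions not given in the sources used here. The kit keeps no strand information. Identifiers were named with GENCODE release 44, which matched 17763 of the 17788 genes, and 6 members overlap another gene of the table. There were 0 unused columns of per-sample values.

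Low genes were removed by filterByExpr (edgeR 4.0.16) with a minimum count of 10 and a minimum total of 15, which left 14865. Following the study's methods, counts were scaled by library size and fitted by limma-voom (limma 3.58.1, R 4.3.3) with a mean per group and no intercept over the 32 libraries. The tests are two-sided, and an adjusted p-value (Benjamini-Hochberg) under 0.05 was taken as a call. Every adjusted p in the text is from this limma-voom fit unless another tool is named. Errors of log2 changes are standard errors. TPM used exon-union lengths, so levels of genes with long rare isoforms are understated. The rule for members uses gene symbols and no measured value. That rule, the gene lists and the tests were nevertheless chosen with earlier results of these data known. Of the tested members, 17 are given library by library, namely those called in at least 1 of the 10 comparisons with a mean of at least 5 CPM in some group. The 3 genes per supporting list were those with the largest absolute change in WT cells at 72 h among the called genes with a mean of at least 10 CPM in some group.

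Groups came from the labels. Libraries of a group differed beyond sampling noise (smallest chi-square per degree of freedom 11.55). The 4 libraries of a series share clone and replication number, and their deviations from the group means had a mean correlation of 0.346 (0.0225 to 0.721, 48 pairs), so the series was used as a block in an alternative fit. Libraries of the same clone in different replications had a mean correlation of 0.0183 (-0.439 to 0.264), so the pairing goes with the series. Alternatives were TMM factors, the quasi-likelihood test of edgeR, DESeq2 1.42.0, no filter, a stricter filter (mean count 50 or more, 12417 genes), the groups of a comparison alone, sums per clone, leaving out each library or the series 27-2 or 1-2, and blocks. The steps were tested on simulated data. The study calls its replicates independent and biological, while the labels do not say whether the replications of a clone were separate cultures. The p-values measure the spread between these libraries.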

Additional observations from a re-analysis of the deposited data

Results flagged for a closer look

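Among the 17 collagen chain genes given library by library, 7 of 136 groups of 4 libraries held a library far from the others (Dixon's ratio of the gap over the range), and chance flags about 1 group in 20. Of the 7, 3 lay in series 1-2 and 1 in series 27-2. At 6 h of TGFβ1 in mut cells the library 1-2 was low for COL4A1, at 124 CPM against 213 to 237 CPM, and for COL4A2, at 245 CPM against 368 to 382 CPM. At 24 h the mut library 1-2 was low for COL6A2, at 5.55 CPM against 9.93 to 11.1 CPM. The WT library 27-2 at 6 h was high for COL4A2, at 596 CPM against 395 to 418 CPM. The mut solvent library 65-2 was high for COL4A4, at 3.18 CPM against 2.53 to 2.58 CPM, and low for COL1A1, at 3.16 CPM against 5.01 to 5.30 CPM. The WT library 2-1 at 72 h was low for COL6A1, at 38.0 CPM against 50.1 to 51.7 CPM.

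The TGFβ1 change differed between genotypes by the interaction test for COL17A1 at 24 h (-0.46 on the log2 scale) and 72 h (-0.64), and for COL4A4 at 72 h (-1.32).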

How the results depend on the processing

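Of 204 counts of called members under the alternatives, 174 stayed within 1.5 times the reported count. Where the series entered as a replicate block, the count of members went from 4 to 8 in WT cells at 6 h (7 with TMM factors as well), from 9 to 15 in mut cells at 24 h (15), from 1 to 5 for the interaction at 24 h (3) and from 2 to 6 for that at 72 h (5), and with block and TMM factors from 10 to 19 in WT cells at 24 h. EdgeR and DESeq2 each gave 16 in WT cells at 24 h, and 2 and 3 for the interaction at 24 h. That interaction count was 2 with its groups alone, 2 without the series 27-2 and 0 without the series 1-2. Summing the replications of a clone gave 3 in mut cells at 6 h, 5 for mut against WT in solvent and 1 for the interaction at 72 h.

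Leaving out each library gave 4 to 5, 9 to 11 and 12 to 16 members in WT cells at 6, 24 and 72 h, 3 to 5, 9 to 12 and 10 to 11 in mut cells, 5 to 7 and 13 to 16 for mut against WT in solvent and at 72 h, and 0 to 1 and 2 to 3 for the interactions. The mut count at 6 h was 3 without the 6 h library 65-1 or 65-2, and the solvent count for mut against WT was 5 without WT solvent 2-1.

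No label ties a WT to a mut library of the same replication number, and whether such libraries deviate together was not measured. With the replication number as a replicate block 10 and 17 members were called for mut against WT in solvent and at 72 h, COL1A1 (-0.84) and COL27A1 (-0.72) being added in solvent. Of 3468 single-gene values under alternatives, 86 lost and 91 gained a call, and 0 called values changed sign. The cause was not tested for any of these. Members below about 1 CPM, such as COL4A3, COL9A3 and COL28A1, rest on few counts per library.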
